A study of Mus musculus with 13 samples.

Results

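Phosphate filtered by the glomerulus is reclaimed in the proximal tubule, and the S1 segment is its first stretch. The genes described here encode that transport, the scaffolds that hold it at the brush border, and the vitamin D enzymes controlled with it. They are the sodium-phosphate cotransporter genes Slc34a1, Slc34a3, Slc20a1 and Slc20a2, the scaffold and linker genes Slc9a3r1, Pdzk1 and Ezr, the FGF23 co-receptor gene Kl, and the vitamin D hydroxylase genes Cyp24a1 and Cyp27b1. Members were chosen by name, with earlier results of these data known, and each was measured by a probe set that the platform annotation gives to that gene alone. Of the 10 genes, 9 had such a probe set, with 1 each, among 22180 genes in all. Pdzk1 shared its probe set with a neighbouring gene and is therefore not analysed here.

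Expression was measured with Affymetrix whole-transcript arrays in S1 kidney tubule segments of male mice of the C57Bl/6J strain, on 13 arrays of 1 sample each. The LPS/LPS group, with 5 arrays, was preconditioned: it received 0.25 mg/kg of lipopolysaccharide (LPS, an endotoxin of Gram-negative bacteria, here 0111:B4), and 5 mg/kg 24 h later. The LPS group, with 4 arrays, received the 5 mg/kg dose alone, into the peritoneum, and both were studied 24 h after that dose. The control group, with 4 arrays, received saline vehicle. The labels give neither the age of the mice nor how the segments were isolated, and they do not say whether an array holds tissue of 1 animal. The p-values therefore measure only the spread between these samples, which may be technical. Values are RMA (robust multi-array averaging) log2 levels, so a difference of 1 is a doubling. Differences were tested with limma in 1 fit of the 13 arrays, with the Benjamini-Hochberg adjustment taken across all 22180 genes and a threshold of 0.05.

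The brush border of the proximal tubule takes up phosphate mainly through the protein of Slc34a1, with those of Slc34a3 and Slc20a2 beside it. Parathyroid hormone and FGF23, which acts through klotho, lower uptake by removing these transporters from the membrane, where PDZ scaffold proteins tie them to ezrin and the actin cytoskeleton. The same segment makes active vitamin D with the enzyme of Cyp27b1 and inactivates it with that of Cyp24a1.

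The results turn on Slc34a1 and Ezr, whose promoters differ in base composition. RefSeq windows of build GRCm38.p6, from 250 bases before to 50 bases after an annotated start, were found for 8 of the 10 genes. In the Slc34a1 window, at chr13:55399398-55399697 on the + strand, capitals mark matches to GTTAAT, the core letters bound by the proximal tubule factor HNF1. In the Ezr window, at chr17:6782731-6783030 on the - strand, capitals mark CG dinucleotides.
Slc34a1: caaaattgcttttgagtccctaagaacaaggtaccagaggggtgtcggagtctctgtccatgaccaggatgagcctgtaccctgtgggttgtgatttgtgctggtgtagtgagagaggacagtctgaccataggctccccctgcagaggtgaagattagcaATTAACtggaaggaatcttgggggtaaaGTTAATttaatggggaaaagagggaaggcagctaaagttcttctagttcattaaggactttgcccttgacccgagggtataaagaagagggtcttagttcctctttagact
Ezr: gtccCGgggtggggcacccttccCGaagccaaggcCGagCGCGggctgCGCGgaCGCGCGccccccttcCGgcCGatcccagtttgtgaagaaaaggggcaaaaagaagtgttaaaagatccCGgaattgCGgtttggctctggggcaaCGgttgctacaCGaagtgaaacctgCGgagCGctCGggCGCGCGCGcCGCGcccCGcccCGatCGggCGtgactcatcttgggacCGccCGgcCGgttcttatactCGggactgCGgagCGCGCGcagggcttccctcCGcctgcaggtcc
Slc34a1 had 46.7% G and C and 2 CG dinucleotides, Ezr had 68.0% and 38, and the medians over 32851 windows were 52.7% and 7. Both strands were searched for each motif. The 2 HNF1 matches of Slc34a1 begin at -89 from the start, on the opposite strand, and at -61, on the strand of the gene, and do not overlap. At least 1 such match was found in 7.1% of the windows, at least 2 in 0.55%, and none in the other member windows. TTCNNNGAA, a STAT site, had no match in a member's window and 1 or more in 8.3% of all windows. AGGTCA, the core letters of nuclear receptor sites, was found in windows of Slc20a1, Slc34a3 and Pdzk1, and in 16.3% of all windows. A match is a run of letters and was not tested for binding. The motifs were chosen after the sequences were seen.

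The files hold no detection calls, so 1105 olfactory receptor genes stood in for background, and the 95th percentile of their means (log2 4.77) is called the background reference here. Of all 22180 genes, 2207 had a mean over all arrays above it, and of the 9 measured genes only Slc34a1 did. Ezr and Kl were above it in the LPS mean, Slc9a3r1 in the control mean, and the other 5 genes were below it in every group mean. The size of a change in a gene below the reference is uncertain. As a check of the labelled segment, 10 of 20 measured S1 and S2 markers had means above it. Slc5a2, a glucose transporter gene among these markers, did not (4.13 ± 0.30, 4.22 ± 0.08 and 4.50 ± 0.16 in LPS/LPS, LPS and control, SD). LPS replicate 3 stood apart. The mean of 16 genes that mark segments beyond the proximal tubule was 5.01 there, against 4.03 to 4.27 on the other 12 arrays. That array also had the highest mean of any array for the S1 and S2 markers (5.91). The same held for endothelial (4.43), fibroblast and mural cell (4.87) and macrophage and monocyte markers (4.13), but not for podocyte, neutrophil or lymphocyte markers. For some of the differences that LPS replicate 3 moved, the value without it is also given.

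Slc34a1 encodes NaPi-IIa, the main phosphate cotransporter of the brush border. Its log2 level was 10.06, 9.13, 8.31, 8.76 and 9.86 on the LPS/LPS arrays. On the LPS arrays it was 9.65, 10.12, 10.91 and 9.48, and on the control arrays 11.27, 11.54, 11.00 and 11.12. All 9 arrays of mice given endotoxin lay below all 4 control arrays, whereas the LPS/LPS and LPS arrays overlapped. Slc34a1 averaged 9.23 ± 0.73 in LPS/LPS and 11.23 ± 0.23 in control (SD), a difference of -2.01 (SE 0.35), or a level 4.02-fold lower in LPS/LPS. By p-value it ranked 5 of 22180 genes in that comparison, but it did not pass the threshold (limma adjusted p = 0.197). In LPS it averaged 10.04 ± 0.64, a difference from control of -1.19 (SE 0.37, limma adjusted p = 0.551), and of -1.48 without LPS replicate 3. Both differences use the same 4 control arrays. The difference of LPS/LPS from LPS was -0.81 (95% interval -1.56 to -0.07, limma adjusted p = 0.539), and it was -0.53 without LPS replicate 3.

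Other markers of the same cells were lower on average in LPS/LPS, and none passed the threshold in any comparison. The mean log2 level of the 20 S1 and S2 markers, members left out, was 4.59 ± 0.22 in LPS/LPS, 5.21 ± 0.61 in LPS and 5.22 ± 0.33 in control (SD). It ranged from 4.42 to 4.88 in LPS/LPS, from 4.46 to 5.91 in LPS and from 4.81 to 5.59 in control, so the groups overlapped. In LPS/LPS against control 19 of the 20 markers had negative differences, with a median of -0.45 against 0.03 over all genes. In LPS against control 9 of the 20 were negative and the median was 0.07, but without LPS replicate 3 these were 12 of 20 and -0.23. In LPS/LPS against LPS the median was -0.55, and -0.30 without that array. With every array shifted to the same marker mean, the Slc34a1 difference was -1.37 in LPS/LPS against control (limma adjusted p = 0.118), -1.18 in LPS against control and -0.19 in LPS/LPS against LPS. The shift put the median of all genes at 0.66 in LPS/LPS against control and at 0.68 in LPS/LPS against LPS. In bulk samples such as these, fewer cells of a type and less RNA per cell cannot be told apart.

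**Figure D1:**
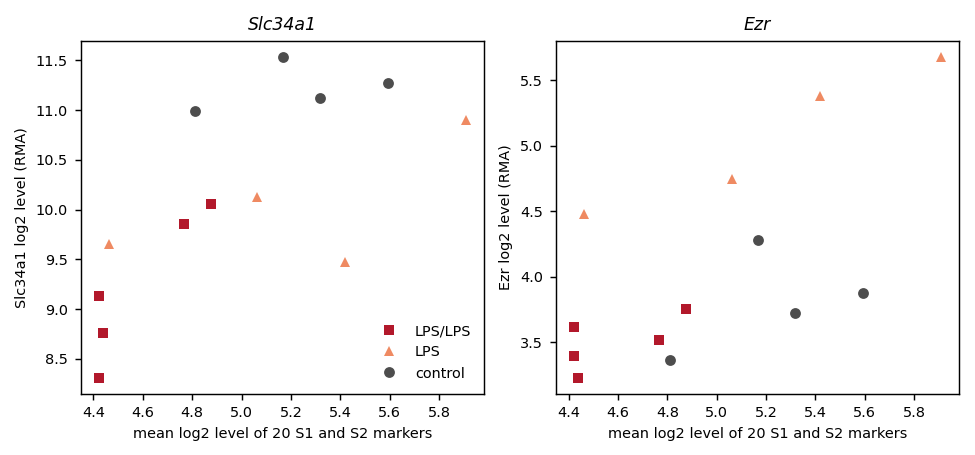
Log2 levels of Slc34a1 (left) and Ezr (right) on each of the 13 arrays against the mean log2 level of 20 S1 and S2 markers on the same array, with squares for LPS/LPS, triangles for LPS and circles for control. The 5 LPS/LPS arrays lie at marker means of 4.42 to 4.88, and all 4 control arrays lie above every other array for Slc34a1.

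Arrays were also split by the SD of their log2 values at its median, into 7 wide arrays (at or above it) and 6 narrow ones. The Slc34a1 difference of LPS/LPS from control was -1.24 within the wide arrays (2 against 2) and -2.53 within the narrow ones (3 against 2). That of LPS from control was -1.03 (3 against 2) and -1.61 (1 against 2). Because all endotoxin arrays lay below all control arrays, both comparisons had to be negative in both classes. Only the sizes of the differences are informative here.

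The genes whose pattern was most like that of Slc34a1 over the 13 arrays, among 1760 others above the background reference with predicted, small RNA and chemosensory receptor genes left out, were Mrps16 (Pearson r = 0.87, Spearman rho = 0.86), Miox (0.87 and 0.86), Pgap6 (0.84 and 0.86), Slc22a2 (0.83 and 0.83) and Tle5 (0.82 and 0.80). These are the highest of many correlations and carry no test, and all arrays share the group differences and the array quality. With the group means taken out, r was 0.80 for Mrps16, a mitochondrial ribosomal protein gene, and 0.72 for Miox, the inositol oxygenase gene of the proximal tubule. It was 0.65 for Slc22a2, an organic cation transporter gene of the same cells, 0.54 for Pgap6 and 0.47 for Tle5.

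The other cotransporter genes showed no difference past the threshold. Slc34a3, which encodes the second apical type II cotransporter, ranged from 3.48 to 3.94 in LPS/LPS (median 3.71), from 3.15 to 3.72 in LPS and from 3.48 to 3.80 in control. Its difference from control was 0.07 in LPS/LPS (95% interval -0.25 to 0.39) and -0.12 in LPS (95% interval -0.46 to 0.22). A shift of the size seen in Slc34a1 lay outside both intervals, though at these levels near background a change could be compressed. Slc20a1, which encodes the widely expressed transporter PiT-1, had log2 levels of 3.97, 3.98, 3.34 and 4.14 in LPS and of 3.19, 3.22, 3.34 and 3.26 in control. The groups differed by 0.60 (SE 0.23, limma adjusted p = 0.693), or by 0.77 without LPS replicate 3, and met at 3.34. In LPS/LPS Slc20a1 averaged 3.26 ± 0.44 (SD), within 0.01 of control. It differed from LPS by -0.60 (SE 0.21, limma adjusted p = 0.452), by -0.77 without LPS replicate 3, and by 0.03 after the marker shift. Slc20a2, which encodes PiT-2 of the brush border, averaged 3.82 ± 0.18 in LPS/LPS, 3.97 ± 0.20 in LPS and 3.64 ± 0.22 in control (SD). Its largest difference was 0.33, in LPS against control (SE 0.15, limma adjusted p = 0.768). All 3 of these genes had levels below the background reference on every array.

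**Figure D2:**
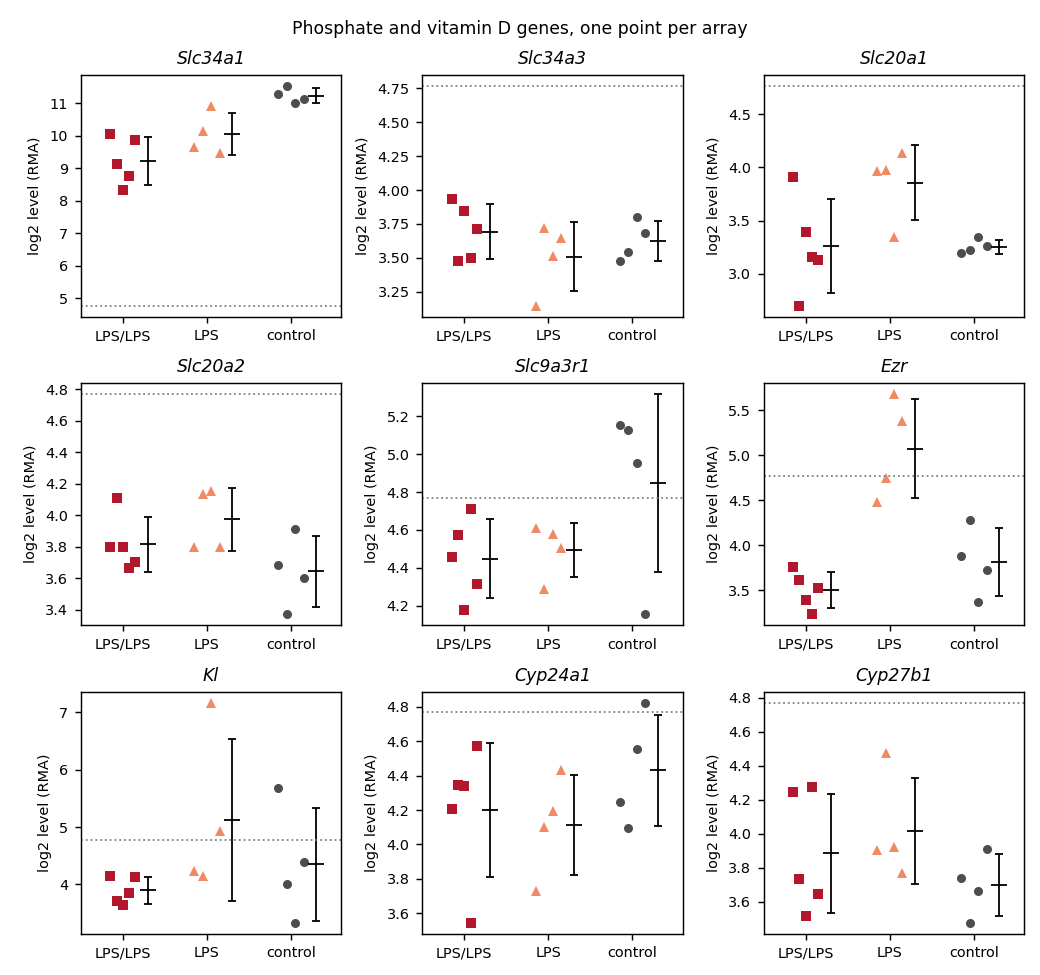
Log2 levels (RMA) of the 9 measured genes, with 1 point per array and the mean with its SD beside each group of 5 LPS/LPS, 4 LPS and 4 control arrays; each panel has its own vertical axis, and the dotted line is the background reference of 4.77. Slc34a1 is lowest in LPS/LPS and highest in control, and Ezr is higher on the 4 LPS arrays than on all other arrays.

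Ezr, which encodes the linker between scaffold and actin in microvilli, fell in LPS/LPS against LPS and was the only member to pass the threshold in any comparison. Its log2 level was 3.76, 3.61, 3.40, 3.23 and 3.52 in LPS/LPS, against 4.48, 4.75, 5.68 and 5.38 in LPS. In control it was 3.88, 4.28, 3.36 and 3.72. The 4 LPS arrays were above all others, and the LPS/LPS and control arrays overlapped. The LPS/LPS mean of 3.50 ± 0.20 lay 1.57 below the LPS mean of 5.07 ± 0.55 (SD), a difference of -1.57 (SE 0.24, limma adjusted p = 0.0337), or 2.97-fold lower in LPS/LPS. It was among 14 genes called, all of them lower in LPS/LPS. Against the control mean of 3.81 ± 0.38 (SD), LPS differed by 1.26 (SE 0.25, limma adjusted p = 0.150) and LPS/LPS by -0.31 (95% interval -0.82 to 0.21, limma adjusted p = 0.987). The comparisons with LPS share its 4 arrays, so the high LPS values enter both. Of the 3 group means only that of LPS was above the background reference.

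The call for Ezr was a narrow one. It was lost, with differences of -1.37 to -1.60, without control replicate 4 (limma adjusted p = 0.0560), LPS replicate 3 (0.0763) or 4 (0.124), or LPS/LPS replicate 2 (0.0960), 3 (0.111), 4 (0.119) or 5 (0.0648). Without LPS replicate 1 the difference of LPS from control passed, at 1.46 (limma adjusted p = 0.0441). In a fit of the 2 groups alone the difference of LPS/LPS from LPS did not pass (limma adjusted p = 0.124). With arrays shifted to the same marker mean it was -0.94 (limma adjusted p = 0.118), and the Ezr difference of LPS/LPS from control turned to 0.33. Within the wide arrays LPS/LPS differed from LPS by -1.63 (2 against 3) and within the narrow arrays by -1.07 (3 against 1).

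Radixin and moesin, the relatives of ezrin that link membrane to actin, are encoded by Rdx and Msn. Rdx had log2 levels of 4.03, 3.63, 3.99, 3.84 and 4.05 in LPS/LPS, of 3.94, 4.44, 5.08 and 4.73 in LPS, and of 4.41, 3.42, 3.49 and 4.02 in control. Msn had log2 levels of 4.30, 4.25, 4.06, 3.13 and 4.48 in LPS/LPS, of 4.00, 4.86, 4.44 and 5.88 in LPS, and of 3.86, 3.90, 3.83 and 4.16 in control. For both the LPS arrays had the highest mean and overlapped the other groups. LPS/LPS differed from LPS by -0.64 for Rdx (SE 0.24, limma adjusted p = 0.467) and by -0.75 for Msn (SE 0.33, limma adjusted p = 0.546). LPS differed from control by 0.71 for Rdx (limma adjusted p = 0.650) and by 0.86 for Msn (limma adjusted p = 0.719). Without LPS replicate 4 the Msn differences were -0.39 for LPS/LPS from LPS and 0.49 for LPS from control. Msn was singled out after its values were seen, and neither gene passed in any comparison.

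**Figure D3:**
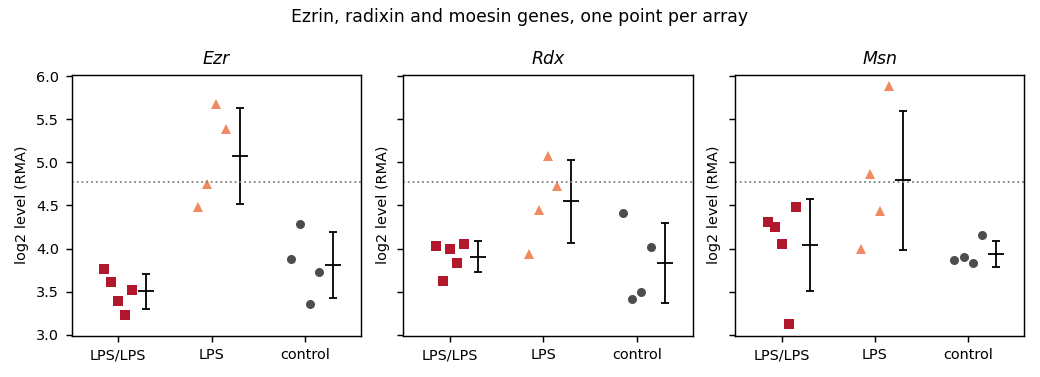
Log2 levels (RMA) of Ezr, Rdx and Msn, which encode ezrin, radixin and moesin, with 1 point per array, the mean with its SD beside each group (5 LPS/LPS, 4 LPS and 4 control arrays) and the background reference of 4.77 as a dotted line. The 4 LPS arrays lie above all others for Ezr, and overlap the other groups for Rdx and Msn.

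Slc9a3r1 encodes NHERF1, the PDZ scaffold that holds NaPi-IIa at the brush border. Its log2 level was 4.46, 4.57, 4.18, 4.71 and 4.32 in LPS/LPS, 4.61, 4.29, 4.58 and 4.50 in LPS, and 5.15, 5.13, 4.96 and 4.15 in control. Of the control arrays 3 lay above all endotoxin arrays and 1, replicate 4, lay below them. The difference from control was -0.40 in LPS/LPS (SE 0.19, limma adjusted p = 0.987) and -0.35 in LPS (SE 0.20, limma adjusted p = 0.793). Without control replicate 4 these were -0.63 and -0.58 and did not pass either, and after the marker shift that of LPS/LPS was 0.23.

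Kl encodes klotho, which is most abundant in the distal tubule. Its log2 level was 4.15, 3.70, 3.64, 3.85 and 4.14 in LPS/LPS, 4.24, 4.15, 7.17 and 4.93 in LPS, and 5.68, 4.01, 3.33 and 4.39 in control. LPS replicate 3 was the highest array and control replicate 1 the next. Kl averaged 3.90 ± 0.24 in LPS/LPS and 5.12 ± 1.41 in LPS (SD), a difference of -1.22 (SE 0.55, limma adjusted p = 0.557), and -0.54 without LPS replicate 3. The difference of LPS from control was 0.77 (SE 0.58, limma adjusted p = 0.844), and 0.09 without that array. Without control replicate 1 it was 1.21, and that of LPS/LPS from control was -0.01, against -0.45 with it and 0.18 after the marker shift.

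The same 2 arrays were high for Umod, the uromodulin gene of the thick ascending limb, with log2 levels of 8.36 on LPS replicate 3 and 6.77 on control replicate 1, against 4.28 to 5.60 on the others. LPS replicate 3 also had the highest levels of Slc12a1 (6.79), Slc12a3 (6.38) and Atp6v1g3 (6.33), which mark the thick ascending limb, the distal convoluted tubule and the intercalated cell. On the other arrays these ranged from 3.24 to 4.20, from 3.55 to 5.43 and from 3.10 to 4.05. Over the 16 markers of these segments, 3 of them above the background reference in their mean over all arrays, the mean level ranged from 4.06 to 4.27 in LPS/LPS, from 4.07 to 5.01 in LPS and from 4.03 to 4.20 in control. Not all of the 16 were highest on LPS replicate 3. Cldn16, Kcnj1, Trpm6, Pvalb, Trpv5 and Hsd11b2 were highest on an LPS/LPS array, and Scnn1b and Slc26a4 on a control array. Cldn16 reached at most 3.94 in LPS, below its lowest LPS/LPS level of 4.03. On control replicate 1 the mean of the 16 was 4.20, against 4.19, 4.03 and 4.17 on control replicates 2, 3 and 4. The list as a whole thus did not set that array apart as Umod did. LPS replicate 3 had the highest mean of the S1 and S2 markers too (5.91), so its high values were not confined to later segments. The part of the later segments in the Kl values was not tested.

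**Figure D4:**
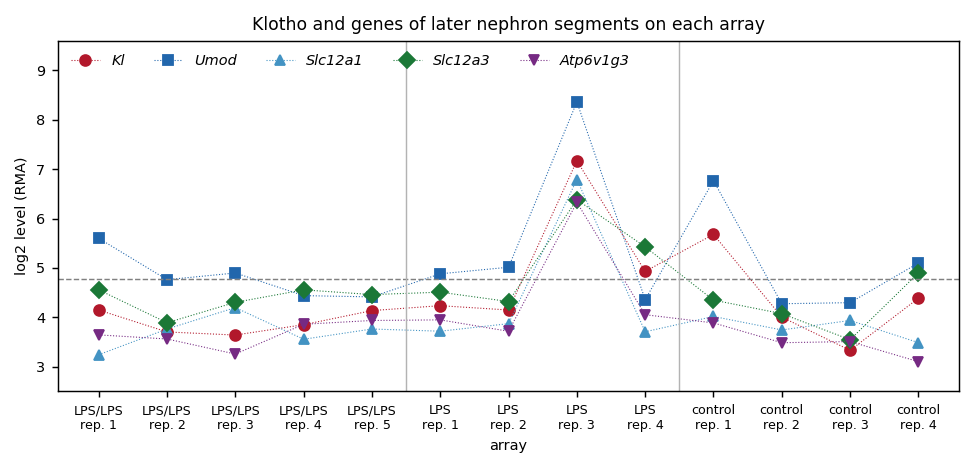
Log2 levels (RMA) of Kl and of 4 genes of later nephron segments on each of the 13 arrays, with the background reference of 4.77 dashed and dotted lines joining the points of a gene only as a guide. All 5 genes peak on LPS replicate 3, where Kl is at 7.17 and Umod at 8.36, and Kl and Umod are next highest on control replicate 1.

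The vitamin D enzyme genes lay close to background and did not pass. Cyp27b1, which encodes the activating hydroxylase, averaged 3.88 ± 0.35 in LPS/LPS, 4.02 ± 0.31 in LPS and 3.70 ± 0.18 in control (SD). It ranged from 3.52 to 4.27 in LPS/LPS, from 3.77 to 4.47 in LPS and from 3.48 to 3.91 in control. Its difference from control was 0.19 in LPS/LPS (95% interval -0.23 to 0.60) and 0.32 in LPS (95% interval -0.12 to 0.76, limma adjusted p = 0.811). Cyp24a1, which encodes the inactivating hydroxylase, averaged 4.20 ± 0.39 in LPS/LPS, 4.12 ± 0.29 in LPS and 4.43 ± 0.32 in control (SD). Its difference from control was -0.23 in LPS/LPS (95% interval -0.69 to 0.23) and -0.32 in LPS (95% interval -0.80 to 0.17, limma adjusted p = 0.837). The groups overlapped for both genes, and LPS/LPS differed from LPS by -0.13 for Cyp27b1 and 0.09 for Cyp24a1.

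Members were chosen with earlier results of these data known, so the counts here are not a test of the set. Counted together, 0 of the 9 genes passed in LPS against control, where 0% of all genes did. At an unadjusted p under 0.05 there were 3 of 9 (Ezr, Slc20a1 and Slc34a1), against 6.43% of all genes, and the groups did not overlap for 2 of 9 (Ezr and Slc34a1), against 3.15%. In LPS/LPS against control 0 of 9 passed, against 0.00902% of all genes. Slc34a1 alone had an unadjusted p under 0.05 and groups without overlap, against 4.7% and 1.54% of all genes. In LPS/LPS against LPS 1 of 9 passed, Ezr, against 0.0631%. There 4 of 9 had an unadjusted p under 0.05 (Ezr, Slc20a1, Slc34a1 and Kl), against 8.61%, and only the Ezr groups did not overlap, against 2.4%. The F-test over the 3 groups called 0 of 9, against 0.0631% of all genes, with limma adjusted p = 0.0507 for Ezr and 0.121 for Slc34a1. With array weights estimated from these same data both passed it, at limma adjusted p = 0.0313 for Ezr and 0.0353 for Slc34a1. In that setting LPS replicate 2 had a weight of 2.18, against 0.74, 0.68 and 0.70 for LPS replicates 1, 3 and 4. The median difference of the 9 genes was 0.32 in LPS against control, -0.23 in LPS/LPS against control and -0.16 in LPS/LPS against LPS, beside -0.02, 0.03 and 0.05 over all genes.

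**Figure D5:**
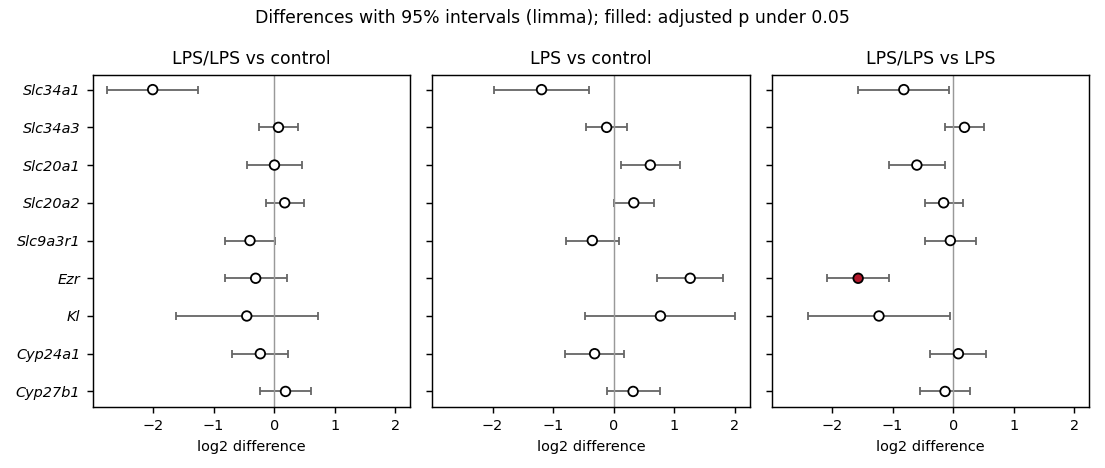
Log2 differences with 95% intervals of the 9 measured genes in 3 panels (LPS/LPS and LPS each against control, then LPS/LPS against LPS), with positive values higher in the first-named group and a filled point where the limma adjusted p is under 0.05. The intervals are not adjusted for the number of genes. Ezr in LPS/LPS vs LPS, at -1.57, is the filled point, and the Slc34a1 intervals lie below 0 in all 3 comparisons, though none passed. Intervals also leave out 0 for Ezr and Slc20a1 in LPS vs control and in LPS/LPS vs LPS, and for Kl in LPS/LPS vs LPS.

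Of 52 further genes of phosphate and vitamin D handling, 7 had means above the background reference, against 2207 of all 22180 genes. None of the 52 passed in any comparison. At an unadjusted p under 0.05 there were 3 higher and 0 lower in LPS against control, where 6.43% of all genes were called in either direction. In LPS/LPS against control there were 1 higher and 1 lower, against 4.7% of all genes. In LPS/LPS against LPS there were 0 higher and 8 lower, against 8.61%. The median differences of the 52 genes were 0.11, -0.01 and -0.06 in that order, beside -0.02, 0.03 and 0.05 over all genes. Among hormone receptors and their signalling partners, Pth1r, the parathyroid hormone receptor gene, averaged 5.11 ± 0.30 in LPS/LPS, 5.13 ± 0.19 in LPS and 5.23 ± 0.14 in control (SD). Fgfr1, whose protein pairs with klotho, averaged 5.03 ± 0.36 in LPS/LPS and 5.67 ± 0.47 in LPS (SD), a difference of -0.64 (limma adjusted p = 0.471). The lowest p of that list belonged to Adcy6, an adenylyl cyclase gene, in LPS against control (0.47, limma adjusted p = 0.765). It belonged to Gna11, a G protein gene, in LPS/LPS against control (-0.33, limma adjusted p = 0.987) and against LPS (-0.61, limma adjusted p = 0.380).

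Lrp2 and Cubn encode megalin and cubilin, which take filtered vitamin D and its binding protein into the cell. Lrp2 had log2 levels of 4.70, 3.98, 3.90, 3.57 and 4.42 in LPS/LPS, of 3.95, 4.70, 7.53 and 5.95 in LPS, and of 6.57, 5.30, 4.87 and 4.86 in control. All LPS/LPS arrays were below all control arrays, while the LPS arrays spanned both. LPS/LPS differed by -1.29 from control (SE 0.58, limma adjusted p = 0.987) and by -1.42 from LPS (SE 0.58, limma adjusted p = 0.504), and by -0.75 from LPS without LPS replicate 3 (limma adjusted p = 0.848). Cubn had the lowest p of the vitamin D list in LPS against control (0.62, limma adjusted p = 0.877), and without LPS replicate 3 the difference turned to -0.11. Vdr, the vitamin D receptor gene, differed from control by 0.03 in LPS/LPS and by 0.21 in LPS, or by -0.11 in LPS without LPS replicate 4. Among scaffold partners, Pdzk1ip1, which encodes a small membrane protein that binds PDZK1, had the lowest p in LPS/LPS against control (-0.38, limma adjusted p = 0.987). Of the remaining phosphate carriers Slc34a2, the type II gene of lung and gut, differed from control by 0.05 in LPS/LPS and 0.30 in LPS, and from LPS by -0.24 in LPS/LPS (limma adjusted p = 0.719).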

How the data were processed

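The authors deposited RMA log2 values per probe set, 41345 for 13 arrays, and the submitters' processing notes name RMA and Partek 6.6. Per the labels' protocols, 2 ng of total RNA per sample was labelled with the Affymetrix WT Pico kit. For the background step, between-array normalization and genome build, nothing is given in the sources used here. RMA background left in a value compresses changes of dim genes, no scanner files were used, and precision is set by how few arrays each group has.

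Probe sets with 1 symbol in the platform annotation (23521) were kept, 1814 with several and 16010 with none were left out, and the highest mean per symbol gave 22180 genes. limma 3.58.1 in R 4.3.3 (lmFit, eBayes, no covariates) gave 3 comparisons and an F-test, with Benjamini-Hochberg adjustment and a threshold of 0.05. The fit was tested on simulated data. Other settings were the 2 groups alone, replicate block, array weights, trended robust moderation, spread class, quantile normalization, marker scaling, background filter, all probe sets, probe set means and leaving out each array.

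Members, gene lists and settings were chosen with earlier results of these data known. The text names all members, and for each of the 6 pathway lists the genes past the threshold or else the one with the lowest p per comparison (cell marker lists are given as counts and medians). It also names the 5 genes most correlated with Slc34a1. Of the other genes, Msn, Umod, Slc12a1, Slc12a3, Atp6v1g3, Pth1r, Fgfr1, Vdr and Slc5a2 come from the lists and were picked after their values were seen.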

Additional observations from a re-analysis of the deposited data

Results flagged for a closer look

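In 126 groups of 4 or 5 arrays, 10 had an array whose gap to its nearest neighbour was large for the group's range. By chance about 1 in 20 is flagged, but that rate cannot be set against this count. Some of the genes, among them Umod, Slc12a1 and Atp6v1g3, were picked after their values were seen, and the list means share genes with them. No member was among the 10. On LPS replicate 3, Umod was at 8.36 with the other LPS arrays at 5.01 or lower, Slc12a1 at 6.79 with the others at 3.87 or lower, and Atp6v1g3 at 6.33 with the others at 4.05 or lower. The mean of the markers of segments beyond the proximal tubule was 5.01 there, with the others at 4.07 to 4.09. LPS/LPS replicate 1 was high for S100g, the calbindin gene of calcium-handling cells (5.79, the next at 3.76), for the mean of the distal calcium transport genes (3.79, the next at 3.43) and for that of the S3 markers (4.17, the next at 3.63). LPS/LPS replicate 4 was low for Vdr (3.79, the next at 4.98) and for the mean of the vitamin D genes without members (3.75, the next at 3.98). LPS/LPS replicate 3 was low for the mean of Slc34a2 and Xpr1 (2.88, the next at 3.05).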

How the results depend on the processing

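Slc34a1 kept its direction in all 3 comparisons under every setting run and passed the threshold in none of them. Its difference in LPS/LPS vs control was -1.24 within the wide arrays. The Ezr difference in LPS/LPS vs LPS lost its call in a fit of only the 2 groups (-1.57, adjusted p = 0.124), with the replicate block (-1.57, adjusted p = 0.223), with marker scaling (-0.94) and over all probe sets (-1.57, adjusted p = 0.0845). The number of members past the threshold there was 0 in these 4 settings, and 0 with the background filter, where Ezr was not tested. Leaving out 1 array gave Ezr -1.77 to -1.37 and 0 to 1 members. Within the narrow arrays Ezr was at -1.07, and at 0.66 in LPS vs control. There it was 1.06 to 1.46 on leaving out 1 array, with 0 to 1 members past. Marker scaling reversed LPS/LPS vs control for Ezr (0.33), Slc9a3r1 (0.23), Kl (0.18) and Cyp24a1 (0.41), and LPS/LPS vs LPS for Slc20a1 (0.0270), Slc20a2 (0.47), Slc9a3r1 (0.58) and Cyp27b1 (0.49). None of these passed, and the scaling itself moves the median of all genes, as given above. Same-numbered arrays did not deviate together (correlations from -0.35 to 0.22, 3 of 12 over 0.1), so the numbers are not taken as pairs. Slc20a1 in LPS/LPS vs control was -0.0115 with array weights and -0.0311 with quantile normalization. In LPS/LPS vs LPS Cyp24a1 was -0.00729 with the replicate block and Slc9a3r1 0.0234 with array weights. Leaving out 1 array gave ranges across 0 for Slc34a3 in LPS vs control (-0.19 to 0.00307), Slc20a1 in LPS/LPS vs control (-0.16 to 0.14), and, in LPS/LPS vs LPS, Cyp24a1 (-0.0422 to 0.25), Cyp27b1 (-0.23 to 0.0177) and Slc9a3r1 (-0.12 to 0.0198).

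Genes called in LPS vs control numbered 0, but 3 with the replicate block, 30 with array weights, 7 with trended robust moderation, 7 with quantile normalization, 14 with marker scaling, 3 with the background filter and 0 to 24 on leaving out 1 array. In LPS/LPS vs control they numbered 2, but 0 with only the 2 groups, with the replicate block and over all probe sets, 4 with the spread class as a block, 4 with quantile normalization, 20 with marker scaling and 0 to 3 on leaving out 1 array. In LPS/LPS vs LPS they numbered 14, but 2 with only the 2 groups, 4 with the replicate block, 41 with array weights, 7 over all probe sets and 5 to 96 on leaving out 1 array. By the F-test they numbered 14, but 2 with the replicate block, 41 with array weights, 52 with marker scaling, 0 over all probe sets and 1 to 39 on leaving out 1 array. Members past the F-test numbered 0, but 2 with array weights (Slc34a1, adjusted p = 0.0353, and Ezr, 0.0313), 1 with trended robust moderation and 1 with probe set means (Ezr in both, 0.0443 and 0.0455), and 0 to 1 on leaving out 1 array. The causes were not tested. The within-class values were added after the data were seen.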

Other observations

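The hormone and bone genes of phosphate control had means below the background reference, as most genes on these arrays did. Of all 22180 genes, 2207 had a mean above it. Of the 10 genes measured here, among them Fgf23, Pth, Phex and the stanniocalcin genes, 0 did and 0 passed in any comparison. The lowest p belonged to Stc2, a stanniocalcin gene, in LPS against control (-0.28, limma adjusted p = 0.781), to Sfrp4 in LPS/LPS against control (0.40, limma adjusted p = 0.987) and to Dmp1 in LPS/LPS against LPS (0.26, limma adjusted p = 0.622). The 8 distal calcium transport genes likewise gave 0 calls, with median differences of 0.05 in LPS against control, -0.04 in LPS/LPS against control and 0.01 in LPS/LPS against LPS. S100g, whose calbindin buffers calcium in the cell, averaged 3.97 ± 1.05 in LPS/LPS, 5.76 ± 1.94 in LPS and 4.38 ± 0.88 in control (SD). Its highest array was LPS replicate 3 (8.45), and LPS/LPS differed from LPS by -1.79 (SE 0.76, limma adjusted p = 0.539), or by -0.89 without that array (limma adjusted p = 0.876). Trpv6, a calcium channel gene, had the lowest p of that list in LPS against control (-0.45, limma adjusted p = 0.768) and in LPS/LPS against control (-0.31, limma adjusted p = 0.987).

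Markers of other cells the segments could carry gave 0 calls in any comparison. Their median differences in LPS/LPS against control were 0.18 over 8 endothelial genes, 0.05 over 8 fibroblast and mural cell genes, 0.12 over 11 macrophage and monocyte genes, 0.05 over 7 neutrophil genes, -0.04 over 7 lymphocyte genes, 0.07 over 5 podocyte genes and -0.02 over 6 S3 genes. Of the endothelial genes 7 were positive there. At an unadjusted p under 0.05, 2 of the 8 were higher, against 4.7% of all genes in either direction. In LPS against control the medians were 0.16, 0.17, 0.05, -0.10, -0.14, -0.04 and 0.12 in the same order. All 8 endothelial genes were positive in LPS against control, 2 of them at an unadjusted p under 0.05 (6.43% of all genes in either direction). All 7 lymphocyte genes were negative. Without LPS replicate 3, 7 endothelial genes were positive and 5 lymphocyte genes negative. In LPS/LPS against LPS the medians were -0.07, 0.05, 0.06, 0.16, 0.18, 0.07 and -0.10, and without LPS replicate 3 those of the podocyte and S3 genes turned to -0.05 and 0.12. Few of these markers had means above the background reference (1 endothelial, 2 fibroblast, 1 macrophage, 0 neutrophil, 1 lymphocyte, 0 podocyte and 2 S3 genes), so their values say little about such cells.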
